A study of Mus musculus with 4 samples.

Results

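The genes described here encode the ligands, receptors, SMADs and direct regulators of TGF-beta and BMP signalling. They were taken by gene symbol alone, from the TGF-beta, BMP and GDF ligands to the type I and type II receptors, TGFBR3, BAMBI, the SMADs, the SMURFs and secreted BMP antagonists such as noggin and chordin. The symbols matched 51 of the 54920 genes listed, and 40 of the 51 had enough reads to be tested. RNA had been sequenced from ID4-EGFP+ spermatogonia, sorted from neonatal mouse testes at postnatal day 8, to ask how loss of *Cnot3*, a subunit of the CCR4-NOT complex that removes poly(A) tails from mRNA, alters their transcripts. The 2 control libraries came from *Cnot3* flox/flox mice carrying *Id4-eGfp*, and the 2 *Cnot3*-cKO libraries came from *Cnot3* flox/flox mice carrying *Ddx4*-creER as well as the reporter. Mice of both groups received 4-OHT from day 1 to day 3, so the controls also carried the floxed alleles and the drug but not the Cre. *Ddx4*-creER is a tamoxifen-inducible Cre driven in germ cells. The labels do not say whether a library came from 1 animal or from a pool, nor that the libraries of a group came from separate animals. The study describes its replicates as biological and gives a larger number of them than the libraries analysed here. The p-values refer to these libraries and rest on a spread between them that was fitted across genes.

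TGF-beta family ligands are secreted dimers that bring together type II and type I receptors, both of which are serine/threonine kinases. The type II receptor phosphorylates the type I receptor, which phosphorylates receptor-regulated SMADs. TGF-beta, activin and GDF11 receptors act mostly through SMAD2 and SMAD3, and BMP receptors through SMAD1, SMAD5 and SMAD9. All of these pair with SMAD4 to enter the nucleus. SMAD6, SMAD7 and the SMURF ubiquitin ligases dampen the pathway inside the cell, and secreted antagonists such as noggin and chordin bind BMPs outside it. In the postnatal testis, BMP4 is known to favour spermatogonial differentiation, and activin and AMH are made by Sertoli cells.

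Counted reads ranged from 40957899 to 43378493 in control libraries and from 22192964 to 28019626 in *Cnot3*-cKO libraries, so a count of 3 reads corresponds to 0.0713 to 0.132 CPM (CPM, each library's reads scaled to a common total with TMM factors). *Cnot3* itself had 58.6 and 50.2 CPM in controls and 19.2 and 19.9 CPM in *Cnot3*-cKO cells. The germ cell genes *Ddx4* (703 to 726 CPM in controls and 720 to 754 CPM in *Cnot3*-cKO cells) and *Dazl* were abundant in every library. Markers of other testis cells were higher in *Cnot3*-cKO libraries. Of 13 Sertoli cell markers 11 were called higher, and their summed level was 444 to 453 CPM in controls and 1250 to 1273 CPM in *Cnot3*-cKO cells. Of 9 macrophage markers 8 were called higher (135 to 213 CPM and 393 to 481 CPM), and of 5 tested Leydig cell markers 4 were (322 to 368 CPM and 831 to 896 CPM), while the Leydig hormone *Insl3* was at 0 in all 4 libraries. Of 8 tested endothelial markers 2 were called higher (43.2 to 45.2 CPM and 60.2 to 66.6 CPM), with *Emcn* at 0 to 2 reads in controls and 2 to 18 reads in *Cnot3*-cKO libraries. None of 7 stromal markers (470 to 498 CPM and 576 to 693 CPM) or 6 peritubular myoid markers (13.9 to 16.5 CPM and 20.4 to 25.7 CPM) was called. By an adjusted p under 0.01 alone, the stromal markers *Pdgfra* (log2 fold change 0.60) and *Col3a1* (0.50) were higher. So were the myoid marker *Acta2* (0.94) and the Leydig cell marker *Star* (0.80). The 9 pan-germ cell genes summed to 5359 to 5814 CPM in controls and 4830 to 5073 CPM in *Cnot3*-cKO cells, with 0 called. At an adjusted p under 0.01 without a fold limit, *Piwil2* (log2 fold change -0.44) and *Sall4* (-0.42) were lower. Of 8 spermatogonial stem cell markers, *Id4* (1.04) and *Eomes* (1.39) were called higher. Without the fold limit *Gfra1* (0.90) and *Etv5* (0.54) were also higher and *Zbtb16* (-0.82) was lower, and the other 3 did not pass. The part of these cell types in the results below was not tested. In sorted bulk RNA, fewer cells of a type and less RNA per cell cannot be told apart.

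Calls required an adjusted p under 0.01 together with a change of more than 2-fold, where p came from the quasi-likelihood test of edgeR and the Benjamini-Hochberg adjustment ran over 23952 genes. Of the 40 tested genes of the pathway, 3 were called higher, among them *Acvrl1* and *Tgfb3*, and 2 lower (*Acvr2b* and *Gdf11*) in *Cnot3*-cKO cells. These are 7.5% and 5% of the 40, against 4.03% and 0.735% of all genes tested (4.76% in either direction). When the p alone decided, *Bmp1*, *Tgfbr3* and *Bmpr2* were also higher, and *Tgfbr1*, *Smurf1* and *Smad1* were also lower. These 6 higher and 5 lower genes are 27.5% of the 40, against 10.9% of all genes (6.21% higher and 4.7% lower). The groups did not overlap in 30 genes (14 higher and 16 lower), or 75%, against 59.1% of all genes (30.5% higher and 28.6% lower). The median log2 fold change of the 40 genes was 0.01, against 0.01 over all genes, and their median absolute log2 fold change was 0.39, against 0.35. No tested gene of the pathway had both libraries of 1 group over the expression filter and neither library of the other. *Bmp3* and *Chrd* had 2 control libraries and 1 *Cnot3*-cKO library over it, and *Gdf9* had 1 and 2.

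**Figure D1:**
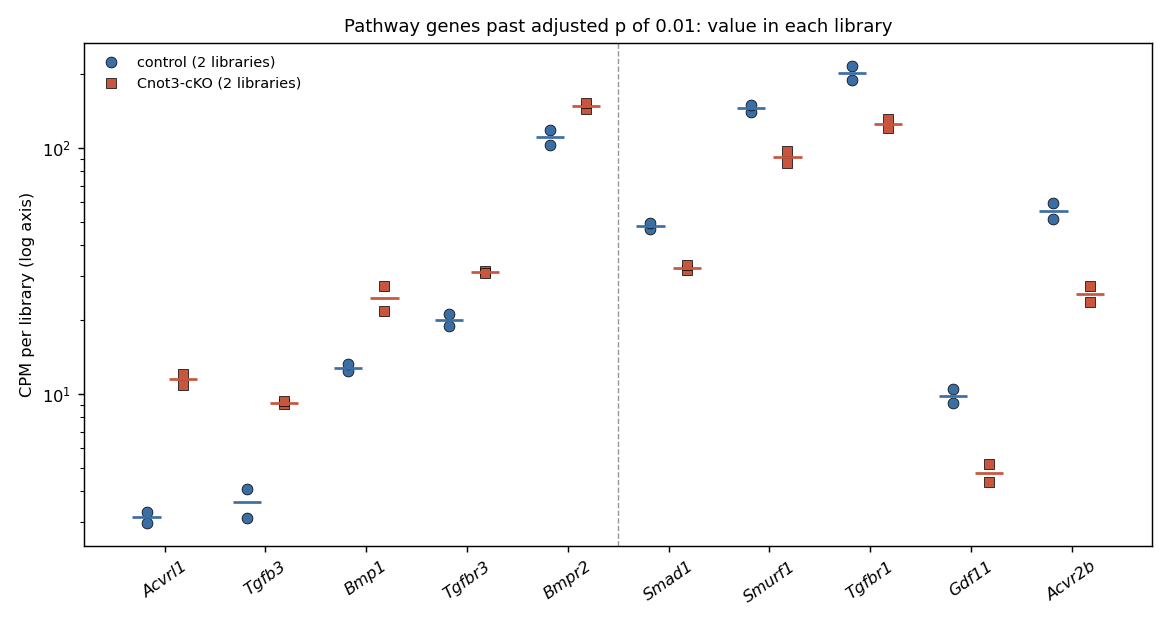
CPM on a log axis in each library for 10 pathway genes past an adjusted p of 0.01, with control libraries as circles, *Cnot3*-cKO libraries as squares and the mean of each group as a line. In each gene the 2 groups do not overlap, with 5 genes higher in *Cnot3*-cKO cells to the left of the dashed line and 5 genes lower to its right.

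Of the 3 TGF-beta ligands, *Tgfb3* rose. *Tgfb3* had 3.13 and 4.11 CPM in controls and 9.09 and 9.29 CPM in *Cnot3*-cKO cells. Each *Cnot3*-cKO library exceeded each control, and the log2 fold change was 1.34 (standard error, SE, 0.23, adjusted p = 0.00161), or 2.54 times the control level. The gene lies at chr12:86056745-86079041 on the reverse strand of GRCm38, and transcripts annotated on the opposite strand cover 7.60% (*Gm48008*) and 4.82% (*Gm37804*) of its exon bases. The strand setting used for counting was not given in the sources used here. *Tgfb1* had 5.69 and 3.66 CPM in controls and 8.61 and 10.02 CPM in *Cnot3*-cKO cells, a log2 fold change of 0.997 that did not pass the threshold (SE 0.25, adjusted p = 0.0133). *Tgfb1* was called higher under 5 of 16 alternatives and passed the p under 9, including DESeq2 (adjusted p = 0.00679). Without control replicate 1 its log2 fold change was 1.33, and without control replicate 2 it was 0.70 (adjusted p = 0.0464). *Tgfb2*, at 2.71 and 1.09 CPM in controls and 1.77 and 1.99 CPM in *Cnot3*-cKO cells, showed no separation of the groups (adjusted p = 0.990). Its 95% interval ran from -0.95 to 0.93 on the log2 scale. Summed per kb of exon, the 3 ligands stood at 2.52 and 2.13 CPM per kb in controls and 4.70 and 5.08 CPM per kb in *Cnot3*-cKO cells.

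None of the 8 tested BMP ligands passed an adjusted p of 0.01 in the fit described here, but *Bmp2* lay close to it. *Bmp7* was the most abundant of them per length, with 26.8 and 32.7 CPM in controls and 23.7 and 24.1 CPM in *Cnot3*-cKO cells. It took 61.9% ± 4.39 of the BMP ligand transcripts per kb in controls and 52.8% ± 3.32 in *Cnot3*-cKO cells (SD, n = 2 per group), and its log2 fold change was -0.32 (SE 0.14, adjusted p = 0.139). *Bmp2*, a ligand of BMPR1A, had 2.73 and 2.54 CPM in controls and 4.68 and 6.56 CPM in *Cnot3*-cKO cells. Its *Cnot3*-cKO libraries lay above both controls, and its log2 fold change was 1.10 (SE 0.27, adjusted p = 0.0129). It was called higher under 9 of the 16 alternatives, among them without control replicate 1 (adjusted p = 0.00511) and without *Cnot3*-cKO replicate 1 (adjusted p = 0.00149), whereas leaving out *Cnot3*-cKO replicate 2 gave an adjusted p of 0.108. The other 6 (*Bmp3*, *Bmp4*, *Bmp5*, *Bmp6*, *Bmp8a* and *Bmp8b*) had log2 fold changes from -1.14 to 0.36 with adjusted p-values from 0.234 to 0.847. *Bmp4* was at 0.745 and 1.05 CPM in controls and 1.06 and 0.978 CPM in *Cnot3*-cKO cells, and the 95% interval of its log2 fold change, -0.88 to 1.24, includes a doubling. *Bmp8a* and *Bmp8b* are close copies, and 210 stretches of 50 bases occur in the exons of both, which is 8.74% of those in *Bmp8a*. An antisense transcript (*Gm26903*) covers 46.7% of the exon bases of *Bmp5*.

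*Bmp1* carries a BMP name but encodes a metalloprotease that processes procollagens and chordin. It had 12.3 and 13.2 CPM in controls and 21.7 and 27.3 CPM in *Cnot3*-cKO cells. Both *Cnot3*-cKO libraries were higher than both controls, with a log2 fold change of 0.94 (SE 0.16, adjusted p = 0.00171). Without *Cnot3*-cKO replicate 2, its adjusted p was 0.0129, and without *Cnot3*-cKO replicate 1 it passed the fold limit too (log2 fold change 1.09, adjusted p = 4.45e-05). It was called higher under 4 of 16 alternatives.

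Of the 3 tested GDF ligands, *Gdf11* fell. *Gdf11*, an activin-like ligand that signals through ACVR2A and ACVR2B, had 9.16 and 10.46 CPM in controls and 4.37 and 5.17 CPM in *Cnot3*-cKO cells. Each *Cnot3*-cKO library was below both controls. The log2 fold change was -1.04 (SE 0.22, adjusted p = 0.00505), or 0.486 times the control level. The fold lay close to the limit of 2, and the call was lost without *Cnot3*-cKO replicate 1 (log2 fold change -0.93, adjusted p = 0.0167) and without control replicate 2 (-0.95). *Gdf10*, also called BMP3B, had the lowest log2 fold change of the 40, -1.50, but its *Cnot3*-cKO libraries differed from each other. It had 6.70 and 6.63 CPM in controls and 0.971 and 3.63 CPM in *Cnot3*-cKO cells, and its adjusted p was 0.0218 (SE 0.41). It was called lower under 7 of 16 alternatives, including DESeq2 (adjusted p = 0.00504) and the fits without control replicate 1, control replicate 2 or *Cnot3*-cKO replicate 2. The log2 fold change was -2.78 when *Cnot3*-cKO replicate 2 was left out and -0.89 when replicate 1 was. *Gdf9*, known as an oocyte factor, was at 0.124 to 0.784 CPM across the 4 libraries (adjusted p = 0.772).

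Among the 7 type I receptors, *Acvrl1* rose and *Tgfbr1* fell, while *Bmpr1a* was the most abundant in every library. *Acvrl1* encodes ALK1, a receptor for BMP9 and BMP10 best known in endothelium. It had 3.30 and 2.97 CPM in controls and 12.05 and 10.8 CPM in *Cnot3*-cKO cells. The groups did not overlap, and the log2 fold change was 1.86 (SE 0.22, adjusted p = 1.20e-04), a ratio of 3.64. The gene lies at chr15:101128522-101145336 on the forward strand, and an antisense transcript (*Gm16031*) covers 2.98% of its exon bases. *Gdf2*, which encodes BMP9, was at 0 reads in all 4 libraries, and *Bmp10* was at 0 apart from 4 reads in *Cnot3*-cKO replicate 1. The endothelial markers *Kdr* (3.11 to 3.48 CPM in controls and 6.60 to 8.25 CPM in *Cnot3*-cKO cells) and *Pecam1* (4.59 to 5.32 CPM and 10.7 to 11.7 CPM) were present in all libraries and higher in *Cnot3*-cKO cells, and these were the 2 of 8 tested endothelial markers called. *Flt1* (log2 fold change 0.28) and *Tek* (0.48) were not called, and *Cdh5* (0.34), *Egfl7* (0.12), *Tie1* (-0.29) and *Esam* (1.02) overlapped between the groups. Their part in the difference of *Acvrl1* was not tested.

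*Tgfbr1*, the type I receptor for TGF-beta, had 188 and 216 CPM in controls and 120 and 130 CPM in *Cnot3*-cKO cells. The fitted log2 fold change was -0.69 (SE 0.09, adjusted p = 3.73e-04), or 0.622 times the control level. *Bmpr1a*, a type I receptor for BMPs, had 267 and 261 CPM in controls and 243 in each *Cnot3*-cKO library. Although its groups did not overlap, the log2 fold change was -0.12 (95% interval -0.29 to 0.05, adjusted p = 0.334). The remaining type I receptors did not pass the threshold. *Acvr1b*, the activin receptor ALK4, differed by -0.05 on the log2 scale (95% interval -0.31 to 0.20), and *Acvr1*, *Bmpr1b* and *Acvr1c* had adjusted p-values from 0.218 to 0.530.

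Among the 4 type II receptors, *Acvr2b* fell and *Bmpr2* rose. *Acvr2b*, a receptor for activins, GDF11 and some BMPs, had 51.2 and 59.8 CPM in controls and 23.6 and 27.4 CPM in *Cnot3*-cKO cells. Both *Cnot3*-cKO libraries were below both controls, and the log2 fold change was -1.12 (SE 0.13, adjusted p = 1.19e-04), or 0.460 times the control level. Scaling the libraries to the pan-germ cell genes moved the median of all genes to 0.18 and the log2 fold change of *Acvr2b* to -0.95 (adjusted p = 1.58e-04), which is under the fold limit in size. *Acvr2a*, its close relative, had 51.1 and 50.01 CPM in controls and 45.9 and 48.0 CPM in *Cnot3*-cKO cells, a log2 fold change of -0.11 (95% interval -0.34 to 0.13, adjusted p = 0.548). No stretch of 50 bases was shared by the exons of the pair. *Orc4*, on the opposite strand, covers 7.84% of the exon bases of *Acvr2a*.

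*Bmpr2*, the type II receptor for BMPs, had 118 and 102 CPM in controls and 144 and 151 CPM in *Cnot3*-cKO cells. The fitted log2 fold change was 0.42 (SE 0.10, adjusted p = 0.00805). It did not pass the p without *Cnot3*-cKO replicate 1 (adjusted p = 0.0224) or replicate 2 (adjusted p = 0.0642). *Tgfbr2*, the type II receptor for TGF-beta, had 16.5 and 13.5 CPM in controls and 24.1 and 20.9 CPM in *Cnot3*-cKO cells, with a log2 fold change of 0.59 that missed the threshold (SE 0.16, adjusted p = 0.0239). *Tgfbr3*, the co-receptor betaglycan that presents TGF-beta2 and binds inhibin, had 21.1 and 18.8 CPM in controls and 31.6 and 30.9 CPM in *Cnot3*-cKO cells. Both *Cnot3*-cKO libraries were higher, with a log2 fold change of 0.65 (SE 0.14, adjusted p = 0.00522), and the adjusted p was 0.0253 without *Cnot3*-cKO replicate 1 and 0.0152 without replicate 2. *Bambi*, a pseudoreceptor without a kinase domain, differed by 0.15 on the log2 scale (adjusted p = 0.551).

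**Figure D2:**
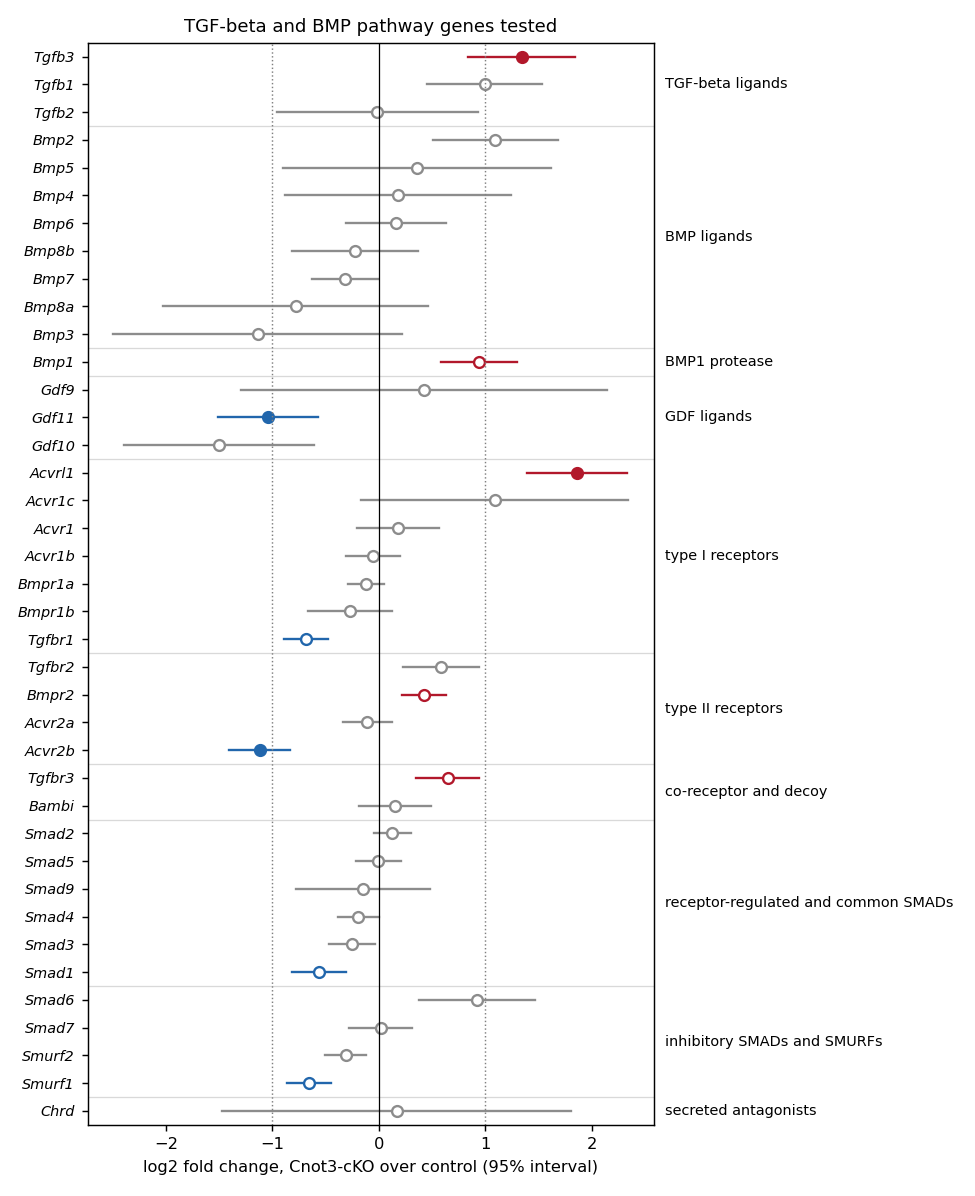
Log2 fold change of *Cnot3*-cKO over control for 39 tested genes, grouped by role, with 95% intervals. Filled points are called (*Tgfb3* and *Acvrl1* higher, *Gdf11* and *Acvr2b* lower), coloured open points pass an adjusted p of 0.01 only, grey points pass neither, and the dotted lines mark a fold of 2.

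Dividing each receptor's CPM by the union length of its annotated exons gave levels for a rough comparison between genes. The order depends on these lengths, which are 17.98 kb for *Bmpr2* and 3.93 kb for *Acvr2b*. Before the division, the control mean of *Bmpr2* (110 CPM) stood above that of *Acvr2b* (55.5 CPM). In controls *Bmpr1a* stood at 41.6 CPM per kb and *Tgfbr1* at 30.8, above *Acvr2b* (14.1), *Acvr2a* (8.89), *Acvr1b* (8.60) and *Bmpr2* (6.12). *Acvr2a* (8.89 ± 0.132, SD, n = 2) and *Acvr1b* (8.60 ± 0.197) were neighbours in this order. *Acvr2b* took 42.6% and 48.6% of the type II receptor transcripts per kb in controls, against 24.02% and 26.5% in *Cnot3*-cKO cells. *Bmpr2* took 21.4% and 18.1% in controls, against 31.97% and 31.9% in *Cnot3*-cKO cells, and *Acvr2a* took 29.4% and 28.1% and then 32.2% and 31.98%. Thus, per kb, *Acvr2b* was the leading type II receptor in both controls. In both *Cnot3*-cKO libraries *Acvr2a* and *Bmpr2* were close to each other per kb and above it. Within a library the ratio of *Acvr2b* to *Acvr2a*, which does not depend on scaling between libraries, was 1.45 and 1.73 in controls, against 0.745 and 0.827 in *Cnot3*-cKO cells. The ratio of *Tgfbr1* to *Tgfbr2* was 14.2 and 20.04 in controls, against 6.25 and 7.80 in *Cnot3*-cKO cells. These pairs were chosen after the values were seen, and the ratios are given as descriptions. The share of *Acvrl1* among the type I receptors was 0.915% and 0.793% in controls, against 3.90% and 3.44% in *Cnot3*-cKO cells.

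**Figure D3:**
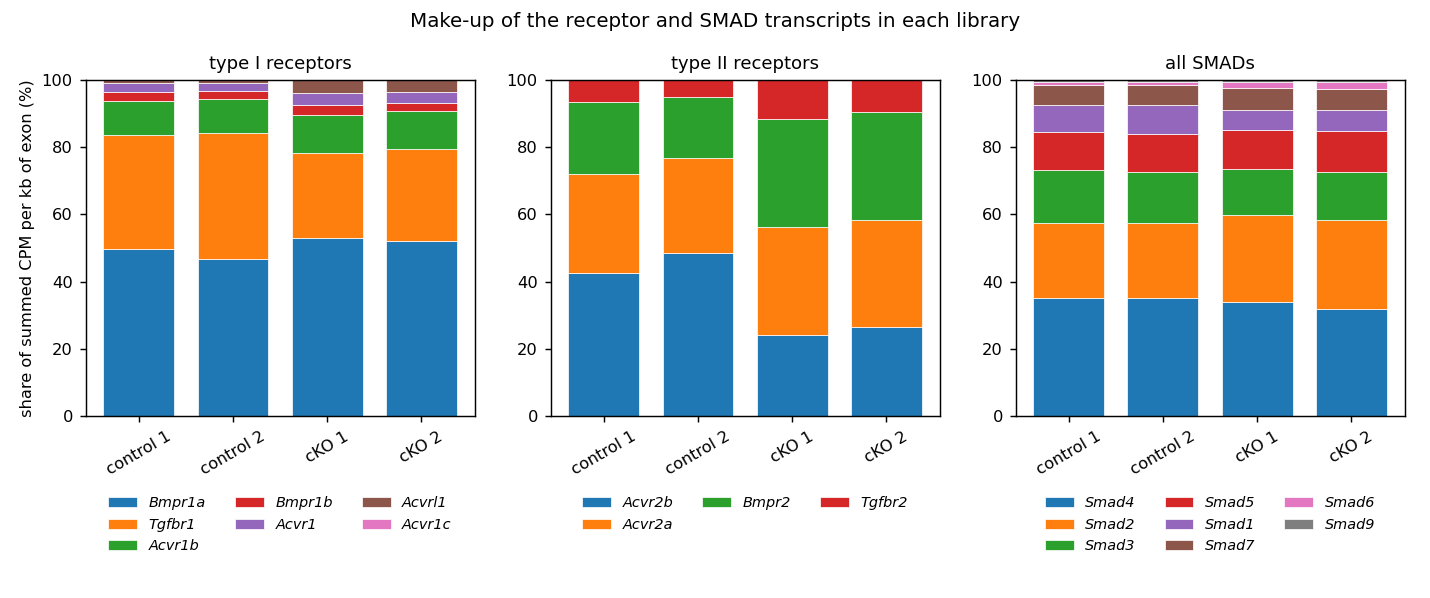
Share of summed CPM per kb of exon (%) taken by each type I receptor, type II receptor and SMAD gene in each of the 4 libraries. The *Acvr2b* share of the type II receptors is 42.6% and 48.6% in controls, against 24.02% and 26.5% in *Cnot3*-cKO cells, and the SMAD shares move less.

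Of the 6 receptor-regulated and common SMADs, *Smad1* fell and the other 5 did not pass the threshold. *Smad1*, a BMP-responsive SMAD, had 46.6 and 49.6 CPM in controls and 31.8 and 33.3 CPM in *Cnot3*-cKO cells. Both *Cnot3*-cKO libraries were lower, with a log2 fold change of -0.56 (SE 0.12, adjusted p = 0.00464). Without *Cnot3*-cKO replicate 1 its adjusted p was 0.0312 and without replicate 2 it was 0.0140. *Smad5*, which acts in parallel with SMAD1, had 74.7 and 74.1 CPM in controls and 71.1 and 77.4 CPM in *Cnot3*-cKO cells, and the interval of its log2 fold change was -0.22 to 0.21. *Smad9* was low, at 2.83 and 3.23 CPM in controls and 2.52 and 2.93 CPM in *Cnot3*-cKO cells (adjusted p = 0.779). Per kb of exon, *Smad1* was 42.0% ± 1.07 of the 3 BMP SMADs in controls and 33.1% ± 0.654 in *Cnot3*-cKO cells (SD, n = 2 per group).

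*Smad2* and *Smad3*, the TGF-beta and activin SMADs, did not pass the threshold. *Smad2* had 178 CPM in each control and 191 and 198 CPM in *Cnot3*-cKO cells (log2 fold change 0.13, adjusted p = 0.310). *Smad3* had 79.4 and 75.6 CPM in controls and 63.1 and 67.2 CPM in *Cnot3*-cKO cells (log2 fold change -0.25, adjusted p = 0.0961). Neither pair of groups overlapped, and they differed in opposite directions. *Smad4*, the partner of all receptor-regulated SMADs, was the most abundant SMAD per length, at 31.7 CPM per kb in controls and 27.8 in *Cnot3*-cKO cells, a log2 fold change of -0.19 (SE 0.09, adjusted p = 0.155). Summed over the 8 SMAD genes, the level was 90.8 and 89.9 CPM per kb in controls and 83.6 and 85.3 CPM per kb in *Cnot3*-cKO cells.

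Of the inhibitors inside the cell, *Smurf1* fell. *Smurf1*, a ubiquitin ligase that targets BMP SMADs and receptors, had 140 and 149 CPM in controls and 96.7 and 86.7 CPM in *Cnot3*-cKO cells. The fitted log2 fold change was -0.66 (SE 0.09, adjusted p = 4.97e-04). *Smurf2* had 138 and 136 CPM in controls and 106 and 115 CPM in *Cnot3*-cKO cells, a log2 fold change of -0.31 that did not pass (SE 0.09, adjusted p = 0.0268). Per kb the 2 SMURFs stood at like levels in controls, at 22.8 and 22.3 CPM per kb. *Smad6*, the inhibitory SMAD that acts mostly on BMP signalling, had 2.91 and 2.95 CPM in controls and 5.16 and 5.90 CPM in *Cnot3*-cKO cells. Its groups did not overlap, but the log2 fold change of 0.92 missed the threshold (SE 0.25, adjusted p = 0.0215). *Smad7*, the general inhibitory SMAD, had 24.1 and 23.3 CPM in controls and 24.5 and 23.6 CPM in *Cnot3*-cKO cells, with an interval from -0.28 to 0.31 on the log2 scale.

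Of the secreted antagonists, *Chrd*, the BMP antagonist chordin, was at 0.919 and 0.333 CPM in controls and 0.221 and 1.15 CPM in *Cnot3*-cKO cells, with overlapping groups. *Grem1* had 8 and 6 reads in controls, against 4 and 6 in *Cnot3*-cKO libraries, and was not tested.

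The 11 genes not tested were *Bmp10*, *Bmp15*, *Gdf1*, *Gdf2*, *Gdf3*, *Gdf5*, *Gdf6*, *Gdf7*, *Gdf15*, *Nog* and *Grem1*, with at most 24 reads in any library. *Nog*, the BMP antagonist noggin, had 2 and 2 reads in controls, against 6 and 8 in *Cnot3*-cKO libraries. *Gdf6* had 10 and 8 reads in controls, against 0 and 1 in *Cnot3*-cKO libraries. *Gdf15*, a stress-responsive cytokine, had 10 and 6 reads in controls, against 0 and 24 in *Cnot3*-cKO libraries. *Gdf1* and *Gdf2* were at 0 in all 4 libraries, where the floor of 3 reads allows up to 0.0713 CPM in the deepest library and 0.132 CPM in the shallowest. All exon bases of *Gdf1* lie within exons of *Cers1* on the same strand, so its reads could not be assigned to it alone.

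Promoter windows from RefSeq (GRCm38.p6, 250 bases before to 50 after a gene's start) were found for 34 of the 51 genes, in 42 windows. Of the 5 called genes, *Acvr2b* and *Gdf11*, the 2 called lower, had one. The bases upstream of their starts are shown, as the start regions of the 2 genes that fell past both thresholds. Capitals mark GGGCGG, the letters bound by SP/KLF factors, and TATAAA, on either strand, where GGGCGG matches can overlap each other. These motifs were added after the sequences had been seen. The stretch of *Acvr2b* is chr9:119401928-119402117 on the forward strand and that of *Gdf11* is chr10:128891719-128891968 on the reverse strand, both 5′ to 3′.
*Acvr2b*: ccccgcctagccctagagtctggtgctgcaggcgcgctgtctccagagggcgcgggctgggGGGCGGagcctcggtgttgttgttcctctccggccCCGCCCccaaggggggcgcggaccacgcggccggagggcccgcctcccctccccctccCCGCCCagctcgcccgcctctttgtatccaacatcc
*Gdf11*: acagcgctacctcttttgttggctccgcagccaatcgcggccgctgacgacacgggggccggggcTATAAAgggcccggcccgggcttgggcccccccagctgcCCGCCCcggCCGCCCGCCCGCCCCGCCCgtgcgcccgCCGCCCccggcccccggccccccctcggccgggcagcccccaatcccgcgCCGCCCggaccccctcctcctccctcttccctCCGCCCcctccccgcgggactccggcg
The window of *Acvr2b* had 73.3% GC and 27 CpG, and that of *Gdf11* had 80.7% GC and 36 CpG, against medians of 52.7% and 7 over all windows. GGGCGG was matched 3 times in the window of *Acvr2b* and 9 times in that of *Gdf11*, and 35.7% of the 32841 RefSeq windows held it, as did 69% of the 42 windows of these genes. TATAAA was matched once, in *Gdf11*, and is in 13.6% of all windows. The letters of the BMP element GGCGCC (11.9% of all windows and 28.6% of the 42) and of the SMAD element CAGACA (21% and 19%) were in neither window. These matches are descriptions of letters.

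The pathway around these genes was described by 60 further genes, of which 51 were tested. There 11 were called higher (21.6% of the 51, against the 4.03% of all genes) and 1 lower (1.96%, against 0.735%). The median log2 fold change was 0.45, against 0.01 over all genes. Without control replicate 2 the number called higher was 6. The largest changes among called genes were those of *Amh*, *Inhbb* and *Amhr2*, which belong to the group of other superfamily ligands and receptor. *Amh*, the hormone that regresses the Müllerian duct, had 3.10 and 3.16 CPM in controls and 18.3 and 20.2 CPM in *Cnot3*-cKO cells (log2 fold change 2.62, adjusted p = 4.21e-06), and its receptor gene *Amhr2* had 8.22 and 9.32 and then 34.6 and 34.9 CPM (1.99, adjusted p = 4.86e-06). *Inhbb* (2.18), *Inha* (1.495) and *Inhba* (1.24), the subunits of activins and inhibins, also rose, and so 5 of the 7 tested genes in this group were called. *Inha* and *Amh* are themselves in the Sertoli cell list, so the rise of that list includes theirs. The study also used *Amhr2* as a Sertoli cell marker. The part of Sertoli cells in these changes was not tested.

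Among 9 tested genes that hold TGF-beta latent or activate it, *Ltbp3*, a latent TGF-beta binding protein, rose from 8.44 and 6.32 CPM to 23.2 and 22.3 CPM (log2 fold change 1.62, adjusted p = 9.66e-05). *Itgb8*, the integrin subunit that activates latent TGF-beta with *Itgav*, rose from 10.3 and 8.79 CPM to 25.2 and 29.9 CPM (1.53, adjusted p = 7.30e-05). *Thbs1* and *Itgav* passed the p but not the fold limit, and *Ltbp1* was lower (-0.67, adjusted p = 0.00807). Among intracellular regulators, *Tgif1*, a corepressor of SMAD2, rose (1.007, adjusted p = 2.48e-04). The SMAD corepressors *Ski* (-0.58) and *Skil* (-0.37) and the SMAD2 and SMAD3 adaptor *Zfyve9* (-0.60) fell at adjusted p-values from 4.25e-04 to 0.00695. Of the targets, *Tgfbi* (1.17), *Id2* (1.03) and *Id4* (1.04) were called higher, where *Id4* is also the gene behind the reporter used to sort the cells. *Id1* and *Id3*, known as BMP targets, were not called. *Rgma*, a BMP co-receptor, was the 1 called lower (12.2 and 12.5 CPM in controls and 4.90 and 5.90 CPM in *Cnot3*-cKO cells, log2 fold change -1.19, adjusted p = 0.00145). Within this wider list, no co-receptor or secreted modulator was called higher. Of its 11 tested modulators, *Fst* (0.75) and *Dcn* (0.64) were higher at an adjusted p under 0.01 without the fold limit. The BMP antagonist *Chrdl1* was lower (-0.59) by the same rule.

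**Figure D4:**
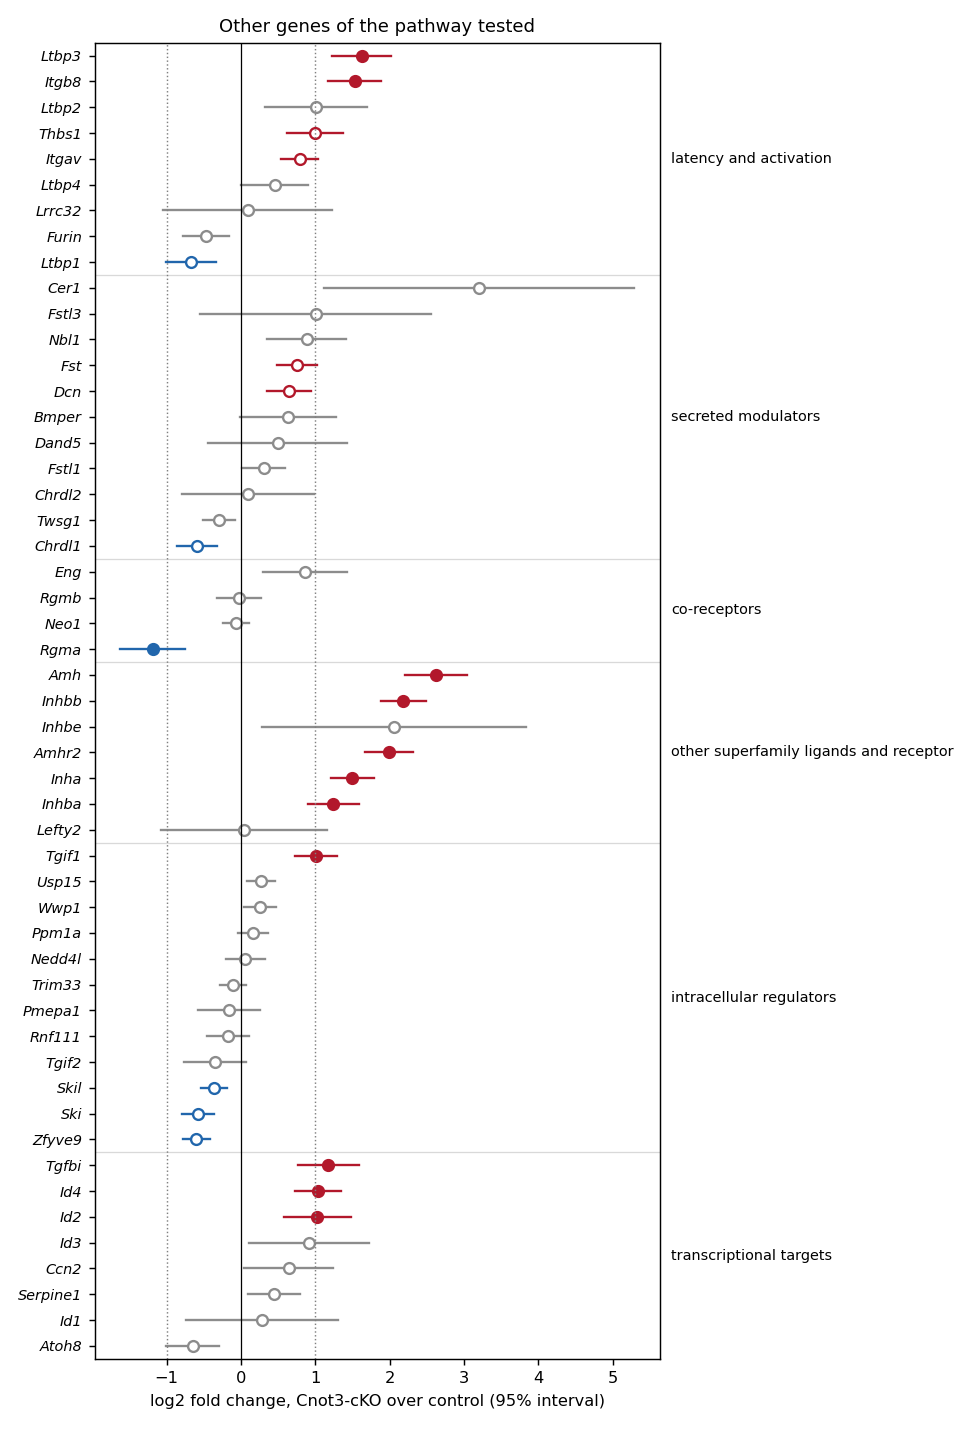
Log2 fold change of *Cnot3*-cKO over control, with 95% intervals, for the 51 tested genes of the wider pathway list, drawn in the same way as the pathway genes above. The group of other superfamily ligands and receptor holds 5 of the 11 genes called higher, and *Rgma* is the 1 called lower.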

How the data were processed

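The authors deposited raw counts per gene symbol, made with featureCounts on GENCODE annotation after quality filtering of reads and STAR alignment to mm10. These counts had not been normalized, and options for reads matching several genes and for strand were not given in the sources used here. Libraries had been made with a stranded total RNA kit. Pathway genes, their roles and all lists were chosen with earlier results of these data known. The text names the called genes of the pathway, those past the adjusted p alone, the most abundant gene of each role, each SMAD and the called genes of the wider list, and any other gene named was chosen after its values were seen. Of the tested pathway genes, 1 is counted in the totals but not reported here.

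edgeR 4.0.16 in R 4.3.3 fitted all genes that passed its default expression filter (minimum count 10), with TMM scaling, no covariates and the quasi-likelihood F test of *Cnot3*-cKO against control, 2 libraries per group. Benjamini-Hochberg adjustment was over 23952 genes. Calls needed an adjusted p under 0.01 with more than a 2-fold change. With 2 against 2, the smallest two-sided p of an exact permutation test is 0.333, so adjusted p-values rest on the dispersion fitted across genes (biological coefficient of variation 0.145). On simulated data, 200 of 23952 genes were changed 4-fold, 193 of them were called with the right sign, and 0 unchanged genes were called. Every simulated gene had the same dispersion, and changed genes were drawn from those above a minimum mean count. The simulation therefore does not cover changes near 2-fold or spread that differs between genes. Exon lengths and coordinates came from GENCODE on GRCm38 (mm10). Per-kb levels divide CPM by union exon length. Alternatives were other scalings, filters, dispersions, thresholds and tools (DESeq2 1.42.0, glmTreat), a replicate block, thinning and leaving out each library. Whether equal replicate numbers mark paired libraries is not known. The correlation of deviations was 0.0642 over 16437 genes, a single value from 2 libraries per group that cannot decide it. Protein sequences were not analysed here. Python 3.11.15 with matplotlib 3.10.9 drew the figures. Counting floors cover counting error only.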

Additional observations from a re-analysis of the deposited data

How the results depend on the processing

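*Acvrl1* and *Tgfb3* were called under all but the test against a fold of 2 (glmTreat). *Acvr2b* kept its call under all but glmTreat and scaling to the pan-germ cell genes, and *Gdf11* lost it under 7 alternatives. Calls were gained by *Bmp2* under 9 of 16 alternatives, *Gdf10* under 7, *Tgfb1* under 5 and *Bmp1* under 4, where 1 of the alternatives set the adjusted p at 0.05. Low ligands such as *Tgfb2* had wide intervals, and depth and the spread between libraries were not separated.

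Over all genes, 965 were called higher and 176 lower. glmTreat gave 87 and 5, with 1 and 0 of the pathway genes at either rule, 3 and 0 of the wider list, and an adjusted p of 0.0346 for *Cnot3* (log2 fold change -1.48). An adjusted p under 0.05 gave 1452 and 284, with 10 pathway genes higher without the fold limit. Without an expression filter 285 genes were lower. Pan-germ scaling moved the median of all genes to 0.18, left 83 genes lower, and gave 6 pathway genes higher, 0 lower, 3 lower at the p alone and a pathway median of 0.179. Library size alone gave 5 higher, 1 lower and a median of 0.0727, upper quartile scaling and thinning gave 1 lower each, and a mean count of at least 50 gave 5 higher.

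Leaving out 1 library gave 3 to 6 pathway genes called higher and 1 to 3 lower, with 6 higher and 1 lower without *Cnot3*-cKO replicate 1 and 5 higher without control replicate 1. At the p alone it gave 3 to 9 higher (3 without *Cnot3*-cKO replicate 2) and 3 to 7 lower (3 without *Cnot3*-cKO replicate 1). The pathway median ranged from -0.085 to 0.0548, the wider list had 6 to 12 called higher (6 without control replicate 2), and 217 to 271 of all genes were lower (271 without *Cnot3*-cKO replicate 2). For these the cause was not tested.

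In the fit with a replicate block, 5 pathway genes were called higher, adding *Bmp2* and *Tgfb1*, and 3 lower, adding *Gdf10*. The labels give these libraries a shared number and do not say whether they were paired.

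Several uncalled genes changed sign. *Tgfb2* was 0.0153 with upper quartile scaling, 0.0501 with library size alone, 0.14 with pan-germ scaling, 0.0167 at a mean count of 50 and 0.11 with the replicate block. *Smad5* was 0.0356, 0.0626, 0.168 and 0.0283 under the first 4 of these. Pan-germ scaling gave 0.0641 for *Acvr2a*, 0.0218 for *Smad9*, 0.0531 for *Bmpr1a* and 0.12 for *Acvr1b*, which was 0.0126 with library size alone. *Smad7* was -0.0102 without a filter and -0.00746 with DESeq2, and *Bmp8b* was 0.0236 after thinning. With 1 library left out, *Tgfb2* ranged from -0.54 to 0.77, *Gdf9* from -0.37 to 2.25, *Bmp4* from -0.055 to 0.44, *Bmp5* from -0.17 to 0.89, *Chrd* from -1.49 to 1.05, *Smad7* from -0.0197 to 0.0397 and *Smad5* from -0.0711 to 0.0475.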
